A study of Rattus norvegicus with 22 samples.

Results

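The MHC class I antigen processing genes are B2m, Tap1, Tap2, Tapbp, Psmb8, Psmb9, Psmb10, Psme1 and Psme2. They were found on the array as the non-control probes whose gene name, ignoring case, was one of these symbols. All 9 names were present, with 1 probe each, among 26276 gene names and 30367 non-control probes. Measured against the common reference, the 9 genes had higher mean levels in the liver after 14 than after 3 months, by a median of 0.41 log2 units, with the proteasome subunits Psmb8, Psmb9 and Psmb10 and the transporter Tap1 having the largest differences. With slide as a fixed block that median was 0.03, with 5 of 9 members higher. No member passed the adjusted threshold on that scale. In the liver channel read without the reference, Psmb8, Psmb9 and Psmb10 passed it over both diets. They did not when slide was a fixed block or when 4 arrays described below were left out. The median of the 9 genes in that channel was 0.49, and 0.50 with slide as a fixed block. Psmb8 differed there by 1.99 log2 units on the control diet and by 0.13 on the enriched BASE-diet. On the control diet Psmb8 also passed without the 4 arrays.

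Liver RNA from 22 male Sprague–Dawley rats, 8 weeks old at the start and housed singly, was hybridized to Agilent two-colour arrays, 1 rat per array. CD 3 (n = 5) and CD 14 (n = 6) were rats kept on the control diet for 3 or 14 months, a semi-synthetic feed whose main fat was lard. BD 3 (n = 5) and BD 14 (n = 6) were rats kept for 3 or 14 months on the BASE-diet, which was the same kind of feed with 6% salmon fat in place of lard, 8% linden inflorescence extract, 8% pumpkin puree and 1% of a probiotic. Every array carried the same kind of reference in the second channel, liver RNA pooled from 10-week-old healthy rats outside the experiment. Rats after 14 months were also older than rats after 3 months, so time on a diet and age cannot be told apart. In whole liver a lower signal from fewer cells of a type and from less RNA per cell cannot be told apart either.

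Cells with a nucleus display fragments of their own proteins on MHC class I molecules, where cytotoxic T cells inspect them. Proteins are cut to peptides by the proteasome, carried into the endoplasmic reticulum by the TAP transporter, and loaded onto a class I heavy chain bound to beta-2 microglobulin. Interferon exchanges catalytic subunits of the proteasome for inducible ones and raises most of the genes of the pathway. In liver, Kupffer cells, endothelial cells and lymphocytes carry much of this machinery, while hepatocytes have lower levels at rest.

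Promoter sequence is shown because interferon acts on these genes through a known element, and because the ratios of several members moved together across arrays. The reference signals of several members did so too, as described below. The 300-base windows of RefSeq (build GRCr8), from 250 bases before the gene start to 50 after it, were searched for the core of the interferon-stimulated response element, GAAANNGAAA, on both strands. It was in 7 of the 9 member windows and in 3.92% of 33469 windows of all genes. The gamma-activated site, TTCNNNGAA, was in 1 member window, that of Psmb8, and in 8.87% of all windows. The letters of the first motif were not in the windows of Psmb9 and Psme1. The match of Tap1 lies between the starts of Tap1 and Psmb9, but further than 250 bases before the Psmb9 start. A match is a description of sequence and not a measured site. The stretches around the matches are given 5′ to 3′ on the gene's strand, with the match in capitals. Tapbp has 2 matches that overlap, and Psmb10 has 2 that are apart.
Psmb8, chr20:4657026-4657060, minus strand: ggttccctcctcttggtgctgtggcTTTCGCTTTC
Psmb10, chr19:50743293-50743390, minus strand: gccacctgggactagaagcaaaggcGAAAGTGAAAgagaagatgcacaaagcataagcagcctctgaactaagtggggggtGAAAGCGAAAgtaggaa
Tap1, chr20:4668630-4668689, minus strand: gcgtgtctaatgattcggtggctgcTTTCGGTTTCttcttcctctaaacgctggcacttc
Tap2, chr20:4652303-4652362, minus strand: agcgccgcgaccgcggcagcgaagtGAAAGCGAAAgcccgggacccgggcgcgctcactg
Tapbp, chr20:4967878-4967928, minus strand: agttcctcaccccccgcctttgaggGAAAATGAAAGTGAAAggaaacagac
Psme2, chr15:33052770-33052829, minus strand: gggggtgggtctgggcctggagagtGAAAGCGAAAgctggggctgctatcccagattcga
B2m, chr3:129549155-129549214, plus strand: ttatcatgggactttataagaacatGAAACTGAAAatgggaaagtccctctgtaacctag

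Tap1, Tap2, Psmb8 and Psmb9 lie together in the MHC on chromosome 20, where the starts of Tap2 and Psmb9 are 16704 bases apart. Tap1 and Psmb9 are read in opposite directions from starts 457 bases apart. Psme1 and Psme2 are neighbours on chromosome 15, with starts 13780 bases apart. The array reads each gene through a single 60-base probe, so a level here is that of 1 stretch of the transcript. The probes of the 3 members of the MHC with large differences are printed below with their rn4 positions as the files give them. Their place in the exons was not analysed here.
Psmb8, chr20:4787980-4788039, minus strand: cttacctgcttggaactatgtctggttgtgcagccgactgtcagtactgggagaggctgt
Psmb9, chr20:4806341-4806400, plus strand: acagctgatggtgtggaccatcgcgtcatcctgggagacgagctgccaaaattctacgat
Tap1, chr20:4793943-4794002, minus strand: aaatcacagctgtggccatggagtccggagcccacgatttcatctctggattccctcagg

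The main measure was the log2 ratio of the rat's liver RNA (Cy5) to the reference (Cy3). The labels give Cy5 to every rat, whereas the study's methods name Cy3 for control rats and Cy5 for BASE-diet rats. The labels were followed, and the lowest correlation of ratios between any 2 arrays was -0.08. Each member was well above background in Cy5 on 22 of 22 arrays, and none was saturated there. In Cy3, Tap1 was not well above background on 2 arrays, CD 3 rat 2 and CD 14 rat 4, and each other member was on all 22. Arrays differed in quality, with 52.35 to 93.59% of spots well above background in Cy5. The lowest median correlations of an array's Cy5 signal with the other arrays were 0.844 (CD 3 rat 1) and 0.908 (CD 3 rat 4), and the highest was 0.973. The 10 hepatocyte markers were all measured, with mean log2 Cy5 signals of 14.05 to 15.45 per array. The arrays lay on 5 slides, and no slide held both BASE-diet groups.

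A set of 4 arrays stood apart in the reference channel, where every array should read the same RNA. On CD 3 rat 3, BD 3 rat 2, CD 14 rat 6 and BD 14 rat 2, the reference signal of Psmb9 was 12.36 to 12.60 log2 units, against 10.05 to 10.81 on the other 18. Psmb9 was the gene by which these 4 were picked, after its values were seen. On the mean of the 4 against the 18, the reference signal of Psmb8 was higher by 1.68, of Psmb10 by 1.44, of B2m by 0.95 and of Tap1 by 0.94. The liver signal of the same genes differed by 0.03, -0.12, -0.10 and 0.06, so that their ratios were lower by 1.67, 1.59, 1.01 and 0.80. Tap2 did not share the pattern, with a reference difference of -0.10. Over all tested probes, 1.37% were more than 1 log2 unit higher in the reference on all 4 arrays. The 12 macrophage markers had a median reference difference of 1.44 and the 10 hepatocyte markers one of 0.00. One such array is in each group. Counts of members and of list genes are given below with and without these 4 arrays, a choice made after seeing the data.

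**Figure D1:**
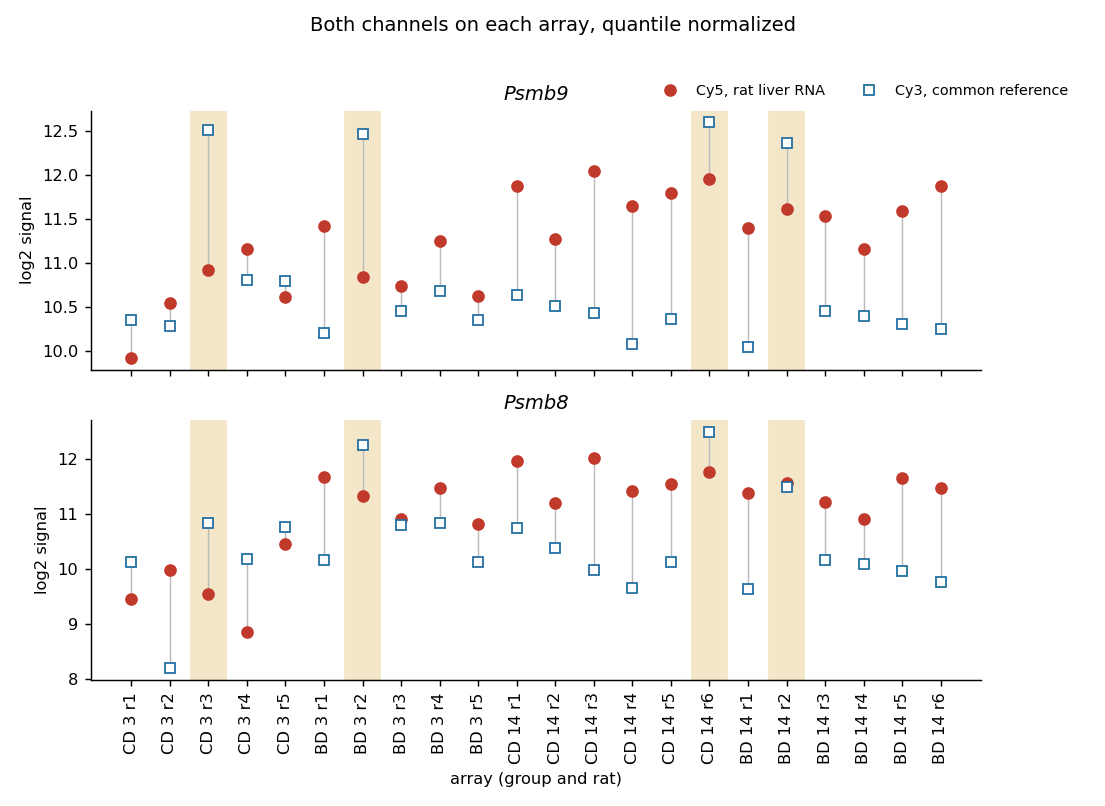
Log2 signal of Psmb9 (top) and Psmb8 (bottom) on each of the 22 arrays, quantile normalized within each channel, with rat liver RNA as filled circles, the common reference as open squares, and the 4 arrays of high reference signal shaded. The reference signal of Psmb9 lies at 12.36 to 12.60 on the shaded arrays and at 10.05 to 10.81 on the others.

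The immunoproteasome subunits Psmb8 and Psmb9 gave the largest differences with time in the ratio, followed by Tap1 and by the subunit Psmb10. Psmb8, Psmb9 and Psmb10 replace the catalytic subunits of the standard proteasome and favour peptides that fit class I molecules. The log2 ratio of Psmb8 in CD 3 was -0.55, 2.07, -1.40, -1.66 and -0.29 for rats 1 to 5, and in BD 3 it was 1.55, -0.93, 0.08, 0.66 and 0.65. In CD 14 it ran from -0.70 through a median of 1.29 to 2.02, and in BD 14 from 0.07 through 1.39 to 1.79. The groups overlapped, since CD 3 rat 2 had the highest ratio of all and also the lowest reference signal, 8.21. Over both diets, Psmb8 was 1.12 ± 0.41 (SE) log2 units higher after 14 months, with an unadjusted p of 0.0127 and an adjusted p of 0.248 (limma, Benjamini-Hochberg over 19425 probes).

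Psmb9 had log2 ratios of -0.37, 0.31, -1.69, 0.32 and -0.16 in CD 3, and of 1.26, -1.65, 0.26, 0.58 and 0.26 in BD 3. In CD 14 they ran from -0.62 through a median of 1.32 to 1.63, and in BD 14 from -0.74 through 1.20 to 1.63. The lowest value of each group came from its array of high reference signal. On the control diet, 5 of 6 CD 14 rats were above the highest CD 3 rat. The time difference over both diets was 1.04 ± 0.36, with an adjusted limma p of 0.233. Psmb10 differed by 0.83 ± 0.30, with an adjusted limma p of 0.24. Its group means were -0.68 ± 0.96 (SD, n = 5) in CD 3, -0.32 ± 0.85 (n = 5) in BD 3, 0.44 ± 0.59 (n = 6) in CD 14 and 0.21 ± 0.51 (n = 6) in BD 14.

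**Figure D2:**
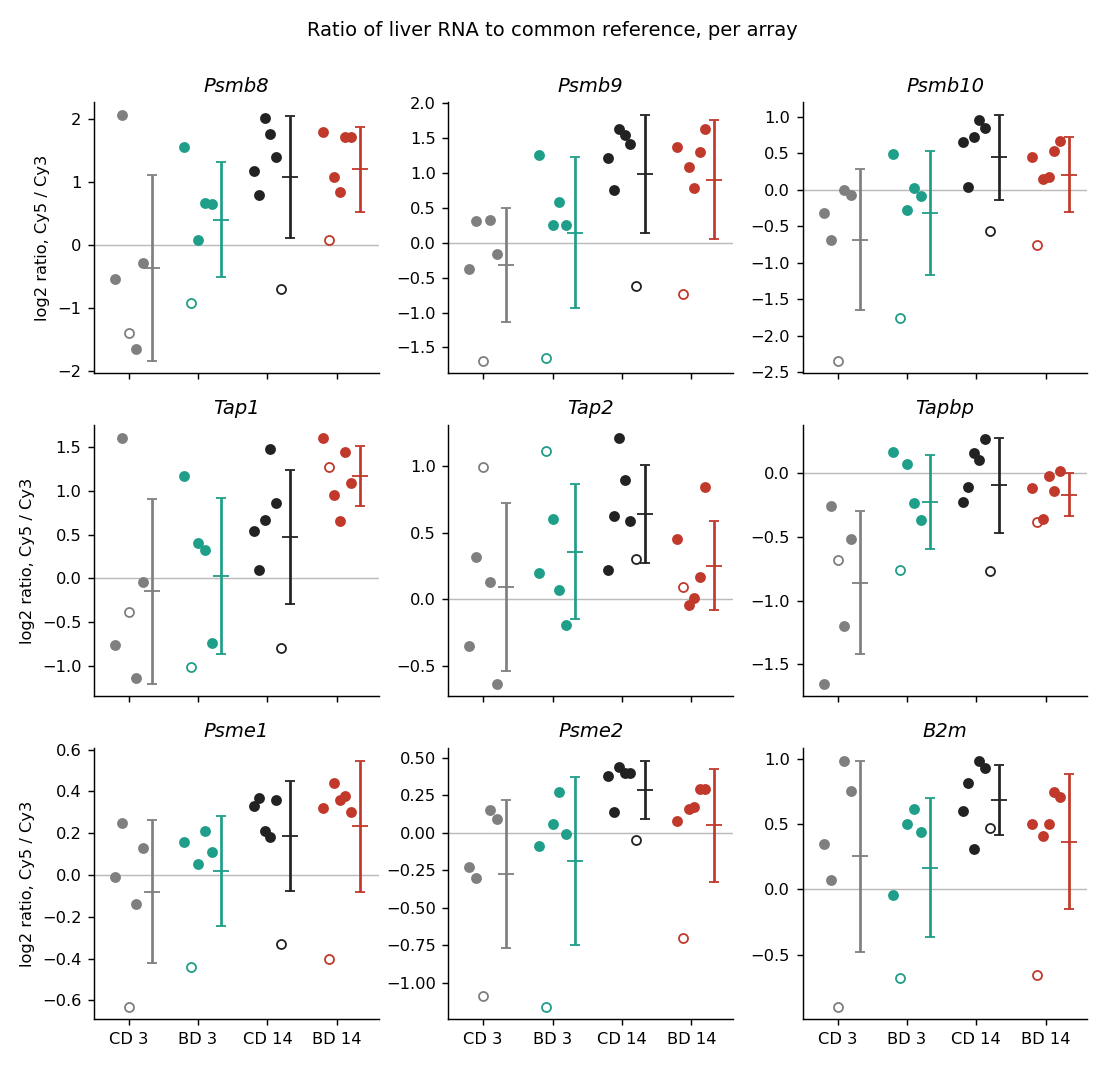
Log2 ratio of liver RNA to the common reference for each member and array by group, where open points are the 4 arrays of high reference signal and bars show mean ± SD (n = 5, 5, 6 and 6). In Psmb8, Psmb9 and Psmb10 most rats after 14 months lie above 0, and the open points lie low in their groups.

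TAP and tapasin carry and load the peptides. Tap1 and Tap2 form the transporter, and Tapbp encodes tapasin, which bridges it to the class I molecule. Tap1 had log2 ratios of -0.76, 1.60, -0.39, -1.14 and -0.04 in CD 3 and of 1.17, -1.01, 0.40, 0.32 and -0.74 in BD 3. In CD 14 it ran from -0.80 through a median of 0.60 to 1.48, and in BD 14 from 0.66 through 1.18 to 1.61. The highest values of CD 3 and CD 14, 1.60 and 1.48, are those of the 2 arrays whose reference signal was not well above background. BD 14 had no rat below 0, although its range overlapped that of each other group. Tap1 was 0.88 ± 0.32 higher after 14 months over both diets, with an unadjusted p of 0.0116 and an adjusted limma p of 0.241. With background corrected by normexp and loess within arrays, the difference of Tap1 was 0.44 over both diets (limma, unadjusted p = 0.0169), while that of Psmb8 was 1.03. Tapbp differed by 0.41 ± 0.17, with an unadjusted limma p of 0.0243. Tap2 differed by 0.22 ± 0.20, at an unadjusted limma p of 0.273.

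The PA28 genes and B2m had differences of 0.24 to 0.40. Psme1 and Psme2 encode the PA28 cap, which opens the proteasome and speeds the release of peptides. Psme2 differed by 0.40 ± 0.18 with time, at an unadjusted limma p of 0.0387, and Psme1 by 0.24 ± 0.14, at 0.0972. B2m, the light chain that every class I molecule needs, differed by 0.32 ± 0.22, at 0.165. Its ratio ran from -0.90 to 0.99 in CD 3 and from 0.31 to 0.99 in CD 14.

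Over both diets, 6 of the 9 members had an unadjusted limma p under 0.05 and a higher level after 14 months, beside 9.17% of all tested probes. After adjustment 0 of 9 passed, beside 0.221% of all probes. The median difference of the members was 0.41, and that of all probes was 0.06. Without the 4 arrays of high reference signal, 8 of 9 had an unadjusted p under 0.05 (7.61% of all probes, higher), the median was 0.48, and 0 passed the adjusted threshold (0.036%). The lowest adjusted limma p was then 0.0807, for Psmb9, at a difference of 0.97. In the other comparisons described below, leaving out these arrays gave unadjusted counts of 6 for time on the control diet (6.08% of all probes, higher), 1 on the BASE-diet (3.43%) and 1 for diet at 3 months (3.67%). They were 0 for diet at 14 months (2.74%, either direction), 6 for BD 14 against CD 3 (9.95%, higher) and 1 for the interaction (3.01%, either direction). The medians were then 0.84, 0.23, 0.31, -0.15, 0.67 and -0.56, and 0 members passed after adjustment.

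Slides held unequal mixes of the groups. When slide was a fixed block, the median time difference over both diets fell from 0.41 to 0.03, and 0 of 9 members had an unadjusted p under 0.05. The share of all probes with a higher level at that threshold also fell, from 9.17% to 1.63%. The values were then 0.38 for Psmb8, 0.14 for Psmb9, -0.18 for Psmb10 and 0.16 for Tap1. Within slide E, the 1 CD 14 rat against the 1 CD 3 rat gave a median of -0.41 in the ratio and of 0.51 in Cy5 alone. That CD 14 rat is on an array of high reference signal. Within slide A, which held 3 CD 14 and 3 BD 3 rats, the median of CD 14 minus BD 3 was 0.44 in the ratio and 0.37 in Cy5 alone, a difference in diet as well as in time. The part of the slide in the time differences was not tested beyond these values.

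By diet, the time difference on the control diet had a median of 0.62 over the members, and that on the BASE-diet one of 0.23. On the control diet, 5 of 9 members had an unadjusted limma p under 0.05 (6.85% of all probes, higher). They were Psmb8 (1.44), Psmb9 (1.31), Psmb10 (1.13), Tapbp (0.76) and Psme2 (0.56). Without CD 3 rat 3 the count was 2, and without CD 14 rat 3 it was 3. On the BASE-diet the count was 1 (4.75% of all probes, higher), for Tap1 at 1.14 ± 0.45. That difference was 0.61 with normexp and loess, and 0.33 ± 0.29 in the liver channel alone. The count was 0 without BD 3 rat 2 or without BD 3 rat 5 and 2 without BD 14 rat 2. The interaction of diet and time, which tests whether these differ, gave 1 member with an unadjusted p under 0.05, beside 4.79% of all probes. This was Tapbp, at -0.70 ± 0.34, with an unadjusted limma p of 0.0482 and an adjusted p of 0.999. In the liver channel alone its interaction was -0.47 ± 0.42, and the sign turned there without CD 3 rats 1 and 4. The count was 0 in 16 of the 22 fits that left out 1 array and 2 in the fit without CD 3 rat 3. For Psmb8 the interaction was -0.64 ± 0.82, and for Tap1 it was 0.52 ± 0.64. In Cy5 alone, described below, the interaction was -1.86 ± 0.35 for Psmb8 and -0.99 ± 0.41 for Tap1 (limma, unadjusted p = 2.62e-05 and 0.0229, adjusted p = 0.127 and 0.369). These 2 of 9 members had an unadjusted p under 0.05, beside 11.5% of all probes.

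The liver channel was then read alone, as log2 Cy5 signal quantile normalized between arrays. Psmb8 had Cy5 signals of 9.46, 9.99, 9.55, 8.85 and 10.45 in CD 3. It had 11.67, 11.33, 10.91, 11.47 and 10.82 in BD 3, from 11.20 through a median of 11.65 to 12.02 in CD 14, and from 10.91 through 11.44 to 11.66 in BD 14. All 5 CD 3 rats lay below the lowest rat of each other group. On the control diet Psmb8 rose by 1.99 ± 0.25 with time, a 3.97-fold difference (limma, adjusted p = 0.000641), and Psmb9 by 1.13 ± 0.21 (limma, adjusted p = 0.0498). These 2 of 9 passed, beside 0.0618% of all probes.

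Over both diets, Psmb8 rose by 1.06 ± 0.17, Psmb9 by 0.84 ± 0.15 and Psmb10 by 0.76 ± 0.15 in Cy5 alone (limma, adjusted p = 0.0053, adjusted p = 0.00984 and adjusted p = 0.0205). Beside these 3 of 9, 0.757% of all probes passed. Psmb8 differed by 0.13 ± 0.25 on the BASE-diet, against 1.99 on the control diet. Tap1 differed by 0.83 ± 0.20 with an adjusted limma p of 0.058. On the control diet Tap1 differed by 1.33 ± 0.29, and on the BASE-diet by 0.33 ± 0.29. On the BASE-diet 0 of 9 passed (0.237% of all probes). There 2 members, Psmb9 and Psmb10, were higher at an unadjusted limma p under 0.05, beside 8.09% of all probes that were higher. Psmb10 there had all 6 BD 14 rats above the BD 3 rats, at 0.67 ± 0.22 and an adjusted limma p of 0.146. Psme1 had the smallest time difference over both diets, 0.04 ± 0.11.

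These Cy5 calls depended on the arrays used, the scaling and the slide. Without the 4 arrays of high reference signal, 0 of 9 members passed over both diets, beside 0.237% of all probes. Psmb8 was then 1.03 higher, Psmb9 0.84 and Psmb10 0.70 (limma, adjusted p = 0.0525, adjusted p = 0.0611 and adjusted p = 0.108). On the control diet Psmb8 alone passed, at 1.94 (limma, adjusted p = 0.0377; 0.0154% of all probes). With each array centred on its median in place of quantile normalization, only Psmb8 passed over both diets (0.391% of all probes), and Psmb8 and Tap1 did on the control diet (0.108%). With slide as a fixed block, 0 members passed for time on the control diet or over both diets (0.0103% of all probes each). Psmb8 was still 1.98 and 1.15 higher (limma, adjusted p = 0.129 and adjusted p = 0.753). The medians of the members were then 1.03 and 0.50, against 0.52 and 0.49 without the block. Without CD 3 rats 1 and 4, the arrays with the lowest Cy5 correlations, Psmb8, Psmb9 and Psmb10 again passed over both diets, beside 0.983% of all probes. On the control diet Psmb8 then passed and Psmb9 did not (limma, adjusted p = 0.0784), beside 0.0206% of all probes. Psmb10 passed on the BASE-diet, beside 3.25% of all probes.

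**Figure D3:**
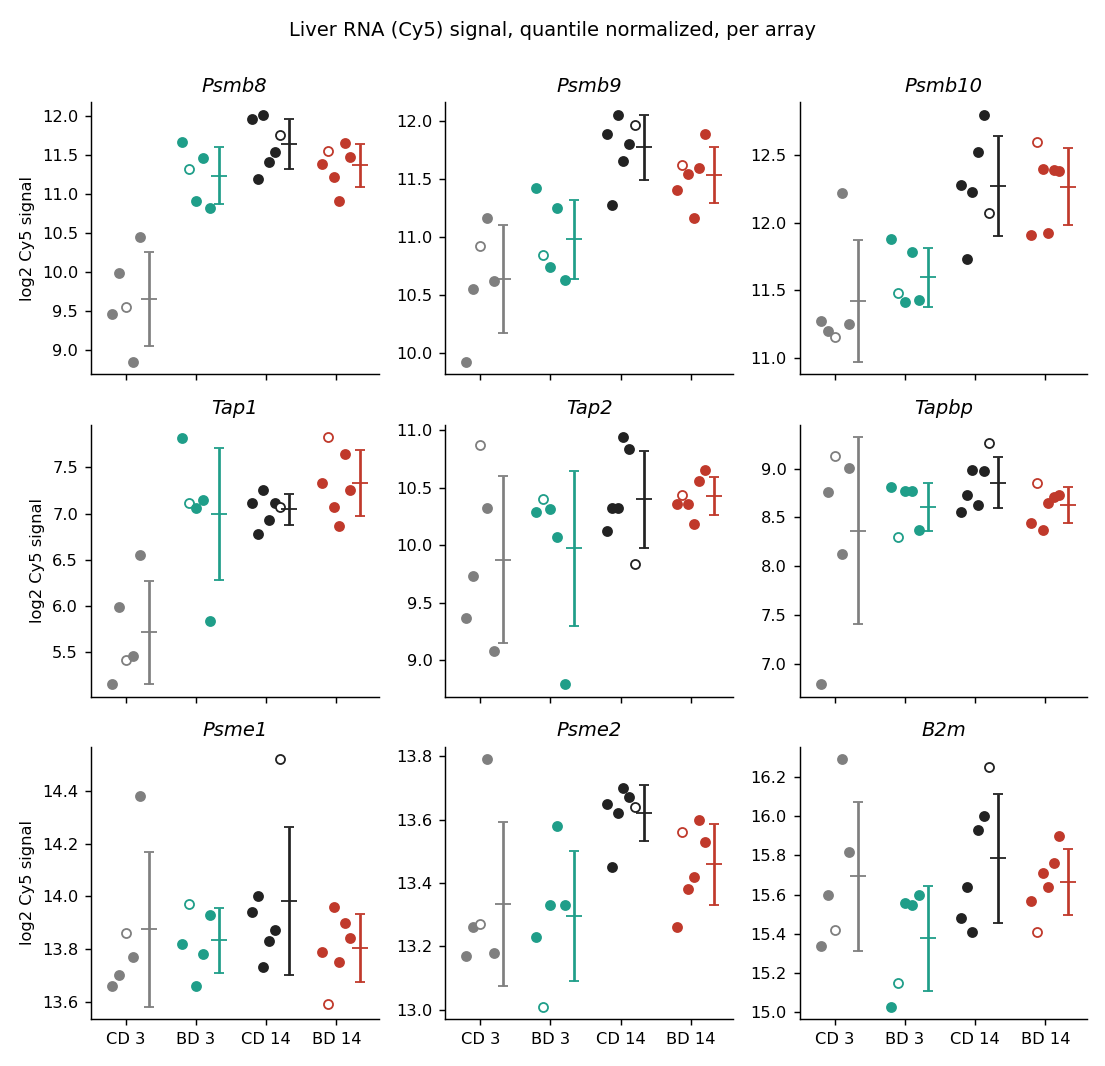
Log2 Cy5 signal of liver RNA, quantile normalized between arrays, for each member and array by group, with open points for the 4 arrays of high reference signal and bars for mean ± SD (n = 5, 5, 6 and 6). For Psmb8 the CD 3 rats, at 8.85 to 10.45, lie below all others, and for Psme1 the 4 groups overlap.

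The diets were compared at each time. At 3 months, 1 of 9 members had an unadjusted limma p under 0.05 in the ratio, beside 4.99% of all probes. Tapbp was 0.63 ± 0.25 higher in BD 3 than in CD 3 (limma, adjusted p = 0.585). Its ratios were -1.65, -0.26, -0.68, -1.20 and -0.52 in CD 3 and 0.16, -0.76, 0.07, -0.24 and -0.37 in BD 3, so the groups overlapped. The count was 0 without CD 3 rat 1 or without BD 3 rat 1, and 2 without CD 3 rat 2. In Cy5 alone Tapbp differed by 0.24 ± 0.31, and by -0.36 without CD 3 rats 1 and 4.

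In Cy5 alone at 3 months, Psmb8 was 1.58 ± 0.26 higher in BD 3 (limma, adjusted p = 0.0132), with no overlap between groups. Tap1 was 1.28 ± 0.30 higher (limma, adjusted p = 0.0407), with Cy5 signals of 5.15, 5.99, 5.41, 5.46 and 6.55 in CD 3 and of 7.82, 7.12, 7.06, 7.15 and 5.84 in BD 3. Among the BD 3 rats 4 of 5 were above every CD 3 rat. Beside these 2 of 9, 1.34% of all probes passed. The 12 macrophage markers were all higher in BD 3 as well, with a median of 0.72 in Cy5 alone and of 0.68 in the ratio, though 2 and 1 of them had an unadjusted limma p under 0.05. Of 30 class I heavy chain genes, 18 were higher and 2 lower in Cy5 alone at an unadjusted limma p under 0.05 (10.2% of all probes, higher), and 3 passed after adjustment. In the ratio 0 of the 30 were higher and 1 was lower at that threshold (4.99% of all probes, higher), with a median of 0.24. The part of macrophages in the diet difference was not tested. In the ratio Psmb8 and Tap1 differed by 0.77 ± 0.61 and 0.18 ± 0.47. The reference signal of Tap1 was itself higher on BD 3 arrays, with a mean of 6.99 against 5.79 on CD 3 arrays, 1 of which was not well above background. That of Psmb8 had means of 10.84 and 10.02, a difference of 0.81 ± 0.54. Within slide B, 2 BD 3 rats against 1 CD 3 rat gave a Tap1 difference of 2.32 in Cy5, 1.89 in the reference and 0.84 in the ratio. Without CD 3 rats 1 and 4, Psmb8 kept its call (2.19% of all probes) and the adjusted limma p of Tap1 was 0.0938. Without the 4 arrays of high reference signal 0 of 9 passed in Cy5 alone, beside 0.0309% of all probes, with Psmb8 at 1.53 and Tap1 at 1.18 (limma, adjusted p = 0.0823 and adjusted p = 0.166). When slide was a fixed block, Psmb8, Tap1 and Tapbp passed in Cy5 alone, beside 10.9% of all probes, while the median diet difference of the members in the ratio was -0.32.

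At 14 months the diets did not differ detectably in any member. In the ratio 0 of 9 had an unadjusted limma p under 0.05, beside 4.59% of all probes, and the median was -0.08. A fit of these 2 groups alone gave 1, Tap1, at 0.70, beside 8.42% of all probes that were higher. The 95% interval of BD 14 minus CD 14 was -1.03 to 1.28 for Psmb8, -1.10 to 0.93 for Psmb9, -0.20 to 1.59 for Tap1 and -0.94 to 0.30 for B2m. Those of Psmb8, Psmb9 and Tap1 leave room for differences of over 1 log2 unit. It was narrowest for Psme1, at -0.35 to 0.43. In Cy5 alone 0 of 9 passed the adjusted threshold and 0 had an unadjusted limma p under 0.05. Within slide C, with 6 BD 14 and 2 CD 14 rats, the median of BD 14 minus CD 14 was -0.38 in the ratio and -0.19 in Cy5.

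BD 14 against CD 3 differs in diet and time at once and shares its rats with the comparisons above. In the ratio 5 of 9 members had an unadjusted limma p under 0.05 and were higher in BD 14 (12.2% of all probes), and 0 passed after adjustment (0.314%). Psmb8 differed by 1.57 ± 0.58 and Tap1 by 1.32 ± 0.45, or 0.70 with normexp and loess. Without CD 3 rat 2, 3 members passed, namely Psmb8, Tap1 and Tapbp, beside 7.26% of all probes. The unadjusted count was 3 without CD 3 rat 3, BD 14 rat 1 or BD 14 rat 6. In Cy5 alone Psmb8 (1.71), Tap1 (1.62), Psmb9 (0.90) and Psmb10 (0.85) passed, beside 4.15% of all probes. When slide was a fixed block 0 members did, beside 0.0103% of all probes. The Cy5 median of the members was then 0.66, against 0.55 without the block. Without the 4 arrays of high reference signal Psmb8 and Tap1 passed, beside 1.66% of all probes.

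**Figure D4:**
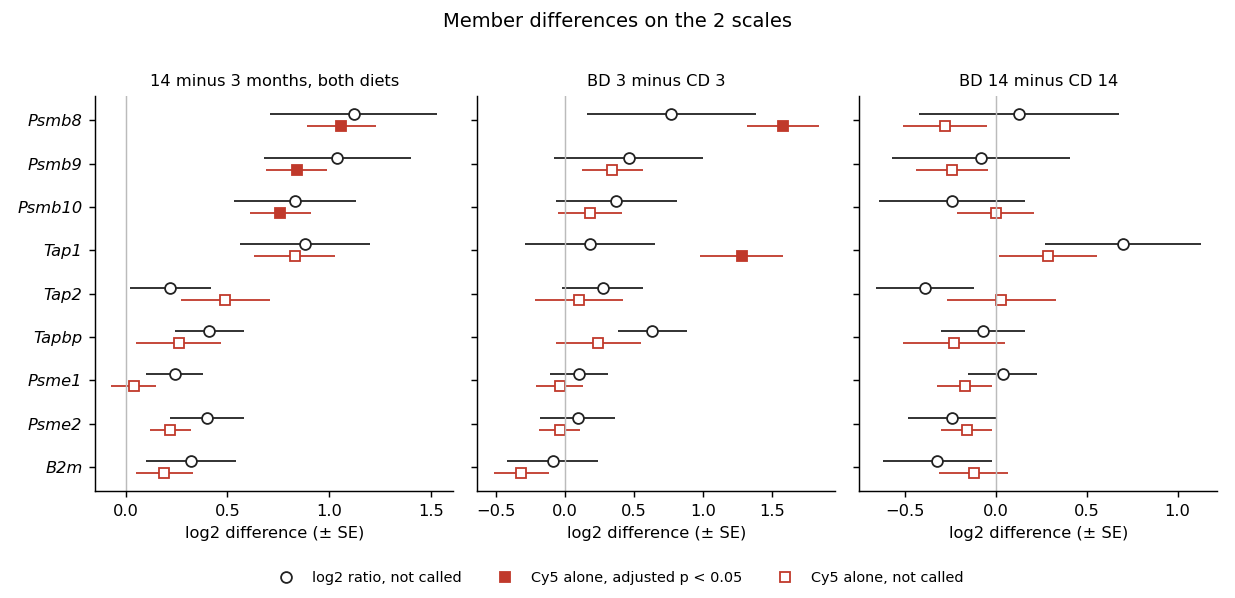
Log2 difference ± SE of each member from the log2 ratio (circles) and from Cy5 alone (squares), for 14 minus 3 months over both diets, BD 3 minus CD 3 and BD 14 minus CD 14, with filled symbols for an adjusted p under 0.05. No circle is filled; squares are filled for Psmb8, Psmb9 and Psmb10 with time and for Psmb8 and Tap1 with diet at 3 months.

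Members were compared with each other across the 22 arrays as a description, since they share arrays and the reference. The ratios of Psmb9 and Psmb10 had a Pearson correlation of 0.94 and those of B2m and Psme2 one of 0.90, whereas B2m and Tap2 had -0.24. In the same order Cy5 alone gave 0.84, 0.64 and 0.06, and the reference alone 0.90, 0.90 and -0.01. Psme1 and Psme2 had 0.82 in the ratio, -0.02 in Cy5 alone and 0.62 in the reference alone. In Cy5 alone Tap1 and Psmb8 had 0.89 and B2m and Tap1 -0.15. The gene names outside the members whose ratio was most like the members' mean, among 16517 probes, were ENSRNOT00000044024 (0.91), Apol11a-ps1 (0.89), Dbnl (0.89), RT1-EC2 (0.88) and RT1-DMa (0.87).

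Other genes of the pathway were taken from lists. For list and marker genes, ratio counts at an unadjusted p under 0.05 over both diets stand beside 9.17% of all probes that were higher. Without the 4 arrays of high reference signal that share was 7.61%. The shares that passed after adjustment were 0.221% and 0.036%. Class I heavy chains, the partners of B2m, had 7 of 30 tested genes with an unadjusted limma p under 0.05 and a higher ratio after 14 months over both diets, and 1 with a lower one. The 7 were RT1-N3 (0.74), RT1-EC2 (0.71), RT1-S3 (0.64), RT1-CE14 (0.62), RT1-CL (0.61), RT1-CE7 (0.55) and RT1-M3-1 (0.47), and RT1-M4 was lower, at -0.57. None of them passed after adjustment in the ratio, and the list median was 0.44. Without the 4 arrays of high reference signal 4 were higher and 0 lower at that unadjusted threshold, with a median of 0.39. In Cy5 alone 17 of the 30 had an unadjusted limma p under 0.05 and a higher level (7.48% of all probes) and 0 a lower one, the median was 0.55, and 3 passed after adjustment (0.757% of all probes). These were RT1-EC2 (0.94), RT1-CE11 (0.86) and RT1-CL (0.79), of which RT1-CE11 passed without the 4 arrays. Heavy chain genes are near copies of each other, so a probe may read more than 1 of them. Of 6 loading partners, Erap1, which trims peptides in the endoplasmic reticulum, had an unadjusted limma p under 0.05 (0.37). None did without the 4 arrays.

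A list of 17 genes of the constitutive proteasome, which holds its subunits, the activators Psme3 and Psme4 and the assembly factor Pomp, had 0 with an unadjusted limma p under 0.05, with or without the 4 arrays, and a median of 0.08. Among the regulators, Jak2 (0.53) and Irf9 (0.52), which relay interferon signals, had an unadjusted limma p under 0.05, and neither did without the 4 arrays. Of 32 interferon-stimulated genes outside the pathway, 23 did, with a median of 0.76. After adjustment 3 passed, Isg15 by 1.87 ± 0.25, Irf7 by 1.68 ± 0.30 and Oasl by 1.91 ± 0.36 (limma, adjusted p = 0.00426, adjusted p = 0.0136 and adjusted p = 0.0267). Without the 4 arrays of high reference signal 22 had an unadjusted p under 0.05, and Isg15 passed after adjustment. In Cy5 alone 24 of the 32 had an unadjusted p under 0.05 (7.48% of all probes, higher). After adjustment 12 passed (0.757%), and 6 did without the 4 arrays (0.237%). The ratio medians of these lists stand beside 0.41 for the members and 0.06 for all probes.

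Markers of other liver cells were also measured, and none passed after adjustment for time over both diets. Over both diets 9 of 12 macrophage markers had a higher ratio with time at an unadjusted limma p under 0.05 (9.17% of all probes). Among them were Vsig4 (1.35), Cd5l (0.88), C1qa (0.81) and Clec4f (0.78). Without the 4 arrays of high reference signal 3 of the 12 markers did (7.61%). Their median was 0.72 over both diets (0.51 without the 4 arrays), 1.22 on the control diet and 0.25 on the BASE-diet. The mean log2 Cy5 signal of the 12 ran from 8.01 to 9.30 in CD 3, 8.91 to 9.56 in BD 3, 8.74 to 11.35 in CD 14 and 8.68 to 10.30 in BD 14. Of 11 tested lymphocyte markers, Ptprc (0.99), Gzma (0.87) and Nkg7 (0.74) had an unadjusted limma p under 0.05, and 1 marker did without the 4 arrays. Their mean log2 Cy5 signal ran from 5.53 to 6.35 in CD 3, 5.48 to 6.16 in BD 3, 5.73 to 7.38 in CD 14 and 5.47 to 6.32 in BD 14, and Cd3e, Cd2, Klrd1 and Ms4a1 were too dim to be tested. Of 3 endothelial markers Lyve1 (0.91) had an unadjusted limma p under 0.05, whereas Clec4g (-0.04) and Pecam1 (-0.07), named after their values were seen, did not, and the count was also 1 without the 4 arrays. The 10 hepatocyte markers had 0, with or without the 4 arrays, and a median of 0.01. The part of these cells in the differences of the members was not tested.

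**Figure D5:**
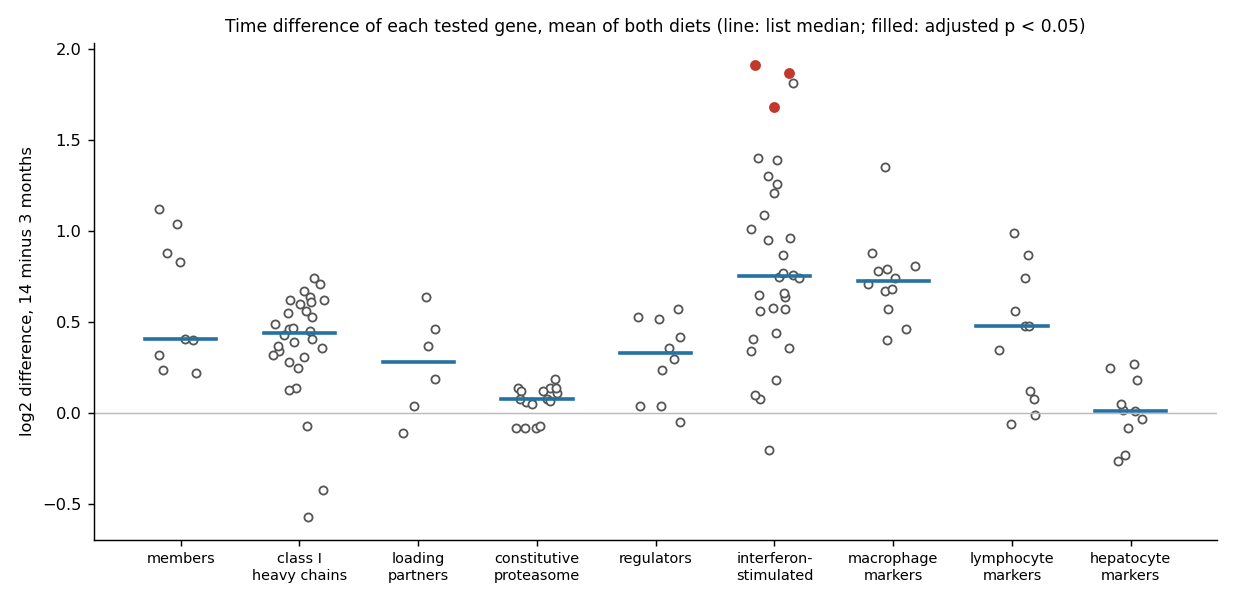
Log2 difference in ratio, 14 minus 3 months over both diets, of every tested gene of each list, with the list median as a line and filled points for an adjusted p under 0.05. The medians are 0.41 for the members, 0.44 for heavy chains, 0.08 for the constitutive proteasome list, 0.76 for interferon-stimulated genes and 0.01 for hepatocyte markers.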

How the data were processed

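Two-colour arrays were scanned and extracted by the authors with Agilent Feature Extraction (version 10.7.3.1 in the submitters' processing notes, 10.10.1.1 in the file headers), which subtracted background and fitted Lowess between dyes within each array; the probes carry rn4 positions. The deposited log10 ratio of Cy5 over Cy3 was turned to log2, and the deposited intensity of each channel was quantile normalized between arrays for the readings of 1 channel. A table of values the authors deposited for the whole series holds log2 ratios of genes they found significant; it has 0 lines for the members and was not used.

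Spots for controls and spots marked non-uniform were dropped, and the remaining spots of a probe were averaged. A probe counted as detected on an array where a share of at least 0.5 of its spots was well above background in Cy5, and a probe entered the test if some group had it detected on each of its arrays; 19425 of 30367 probes did, and the 9 members were detected on all 22 arrays. Groups were fitted together with limma 3.58.1 in R 4.3.3 (lmFit and eBayes), with Benjamini-Hochberg adjustment of the p-values across all tested probes and a threshold of 0.05. Python 3.11.15 made the summaries. The fit was checked on simulated data. The number of arrays limits the precision; the labels give 1 rat per array.

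Members and lists were chosen with earlier results of these data known. The genes named are all members, list genes with an unadjusted p under 0.05 for time over both diets or an adjusted one in any comparison, and the 5 genes most like the members' mean. A result of the regulator list is not reported here. Alternatives covered background correction, scaling, filters, array weights, slide and rat number as blocks, groups in the fit, the F test and Tukey test of the methods, Cy5 alone, and each array left out.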

Additional observations from a re-analysis of the deposited data

Results flagged for a closer look

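Among 36 sets of 5 or 6 rats, 8 log2 ratios lay far below the rest of their group by Dixon's criterion at 95%, where chance marks about 1 in 20 sets. On BD 14 rat 2 these were B2m (-0.66), Psmb9 (-0.74), Psmb10 (-0.76), Psme1 (-0.40) and Psme2 (-0.70). On BD 3 rat 2 they were Psme1 (-0.44) and Psme2 (-1.16), and on CD 14 rat 6 Psme1 (-0.33). Each of the 3 arrays is among the 4 with a high reference signal. Tapbp had a diet difference at 14 months that was lower than that at 3 months by -0.70 in the test of the interaction (limma, with an unadjusted p of 0.0482 and an adjusted p of 0.999).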

How the results depend on the processing

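Of the 19 member differences with an unadjusted p under 0.05, 735 of 746 alternative values had the same sign and 11 were reversed. Many alternatives leave the group means as they were, such as other filters, an intensity trend or leaving out an array of a group not compared. Their signs could not change, so the count of same signs was partly fixed in advance. With slide as a fixed block, Psmb10 was -0.12 and Psme2 -0.16 for time on the control diet, Psmb10 -0.18 and Psme2 -0.15 for time over both diets, and Psmb9 -0.32 and Psmb10 -0.82 for BD 14 against CD 3. In Cy5 alone without CD 3 rats 1 and 4, an alternative added after seeing the data, Tapbp was -0.11 for time on the control diet, -0.04 over both diets, -0.36 for diet at 3 months, -0.34 for BD 14 against CD 3 and 0.13 for the interaction. The cause was not tested. 

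The counts below follow the order time on the control diet, time on the BASE-diet, time over both diets, diet at 3 months, BD 14 against CD 3 and interaction. Members with an unadjusted p under 0.05 numbered 5, 1, 6, 1, 5 and 1 in the ratio, and 0 were called. With slide as a fixed block they were 1, 0, 0, 0, 0 and 2, beside 6.01, 4.64, 3.02, 11, 6.02 and 11.1% of all probes in either direction. The medians were then -0.32 for diet at 3 months and -0.25 for BD 14 against CD 3. With slide as a random block the counts were 2, 0 and 1 for the 3 time differences (6.69, 2.81 and 6.51% of all probes). For BD 14 against CD 3 the count was 1 (9.48%). Array weights gave 0 for diet at 3 months and 0 for the interaction, and fits of only the groups compared gave 0 for diet at 3 months and 1 at 14 months. Cy5 alone called 2, 0, 3, 2, 4 and 0. At an unadjusted p under 0.05 it had 2 for time on the BASE-diet (16.4% of all probes, either direction), 2 for diet at 3 months (17.2%) and 2 for the interaction (11.5%). Centred on the median instead (added after seeing the data), it called 2, 0, 1, 2, 2 and 0. Unadjusted counts were then 3, 2, 2 and 2 for time on each diet, diet at 3 months and the interaction, whose median was 0.22. The shares of all probes were 11.7, 13.4, 16.3 and 11.2% in either direction. With slide as a fixed block (added), Cy5 alone called 3 for diet at 3 months. Members with an unadjusted p under 0.05 then numbered 6, 0, 3, 4, 3 and 4, beside 12.1, 12.2, 4.52, 32.4, 9.5 and 27.4% of all probes in either direction. The medians were 1.03, 0.03, 0.50, 0.71, 0.66 and -1.14. Cy5 alone without the 4 arrays of high reference signal (added) called 1, 0, 0, 0, 2 and 0. For diet at 3 months 2 had an unadjusted p under 0.05 (12.5% of all probes, either direction). Cy5 alone on 20 arrays (added) called 1, 1, 3, 1 and 4. It had 2 unadjusted for time on the BASE-diet (25.1% of all probes, either direction) and 2 for diet at 3 months (21.3%).

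Leaving out each array in turn gave 0 called members, except for BD 14 against CD 3, where the count ran from 0 to 3. Unadjusted counts ran from 2 to 6, 0 to 2, 4 to 7, 0 to 2, 3 to 6 and 0 to 2 in the order above, and were 0 for diet at 14 months. Medians ran from 0.54 to 0.91, 0.10 to 0.41, 0.34 to 0.48, 0.11 to 0.44, 0.48 to 0.84 and -0.72 to -0.19, and from -0.30 to -0.00 for diet at 14 months.

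Rat numbers did not pair the rats: 6 of 31 same-number pairs had a correlation over 0.1, and 5 of 22 arrays were most like their own number. With the replicate block the unadjusted counts were 5, 1, 6, 1, 5 and 0, and 0 were called. Of all probes 9.29, 7.76, 12.8, 6.91, 17.3 and 4.55% had such a p in either direction. The F test and Tukey test of the methods called 0 members after adjustment. The authors' value table and the mean of several probes could not be run, since the members have no line in the one and 1 probe each on the array. The 4 groups had 5 or 6 arrays, and the reference channel of Psmb8 had an SD of 0.90 over 22 arrays, against a median of 0.46 over all probes.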
